A study of Zea mays with 2 samples.

Results

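Genes of polyamine synthesis and oxidation were examined in 2 maize (Zea mays) leaf RNA libraries, 1 treated and 1 control. The genes were the 2 identifiers GRMZM2G374302 and GRMZM2G034152 together with every gene whose family description names an arginine, ornithine or S-adenosylmethionine decarboxylase, a spermidine or spermine synthase or a polyamine oxidase. This gave 29 of the 39634 genes listed. Both identifiers were selected on their FPKM ratio between these libraries, and both also match by description, so the descriptions alone give the same 29 genes. The treated library came from leaves of seaweed-extract-treated plants and the control library from leaves of control plants, all of the cultivar Sugar 75 at the V5 stage. The title of the treated library calls it only a sample, and it is taken as treated because the series names 1 control and 1 treated sample. Per the labels each library pooled 3 independent samples and had 2 technical replicates, and the series concerns drought stress. Whether the plants of each pool were kept dry, what the extract was and how it was given are not stated in the sources used here.

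Polyamines are small, positively charged molecules that bind nucleic acids, membranes and cell walls. Plants make the diamine putrescine from arginine, through arginine decarboxylase and agmatine, or from ornithine, through ornithine decarboxylase. Spermidine and spermine are then built by adding aminopropyl groups, which S-adenosylmethionine decarboxylase provides and the synthases transfer. Polyamine oxidases either convert the larger polyamines back to smaller ones or, as the maize cell wall enzyme does, break them down to diaminopropane.

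Levels are FPKM (fragments per kilobase of gene, adjusted for the size of the library) as deposited, each with its deposited lower and upper bound. These bounds describe how well each value was quantified in its own library, not how much plants vary. Each group has 1 library, so nothing here has a replicate check or a test, and each difference below is one between these 2 libraries. Differences are log2((treated + 1)/(control + 1)), a scale that understates the difference of low genes, and a gene was counted as higher or lower at a log2 ratio of at least 1 or at most -1. Ratios were read for the 16272 genes that reached 1 FPKM in either library, called measured genes here. The 2 libraries summed to 230054 FPKM (treated) and 233809 FPKM (control), and the FPKM value of 1 fragment was 1.25 times that of the control in the treated library, which was therefore the shallower one. The median gene had a log2 ratio of 0.22, so ratios are also given after the treated library was rescaled to place the median gene at parity. The direction of small differences turns on this choice.

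Of the 29 polyamine genes, 17 were measured, and 2 of these were lower in the treated library and none was higher. Among all measured genes 2.52% were lower and 3.71% were higher. The 2 lower genes are those included by identifier, so their count carries no weight against that background. The other 15 had log2 ratios between -0.58 and 0.39 with a median of -0.01, against an interquartile range of -0.04 to 0.46 over all measured genes. Of those 15, 9 had negative and 6 positive ratios, and 12 lay below the median gene. After rescaling to the median gene they lay between -0.80 and 0.15, with 12 negative and 3 positive.

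**Figure D1:**
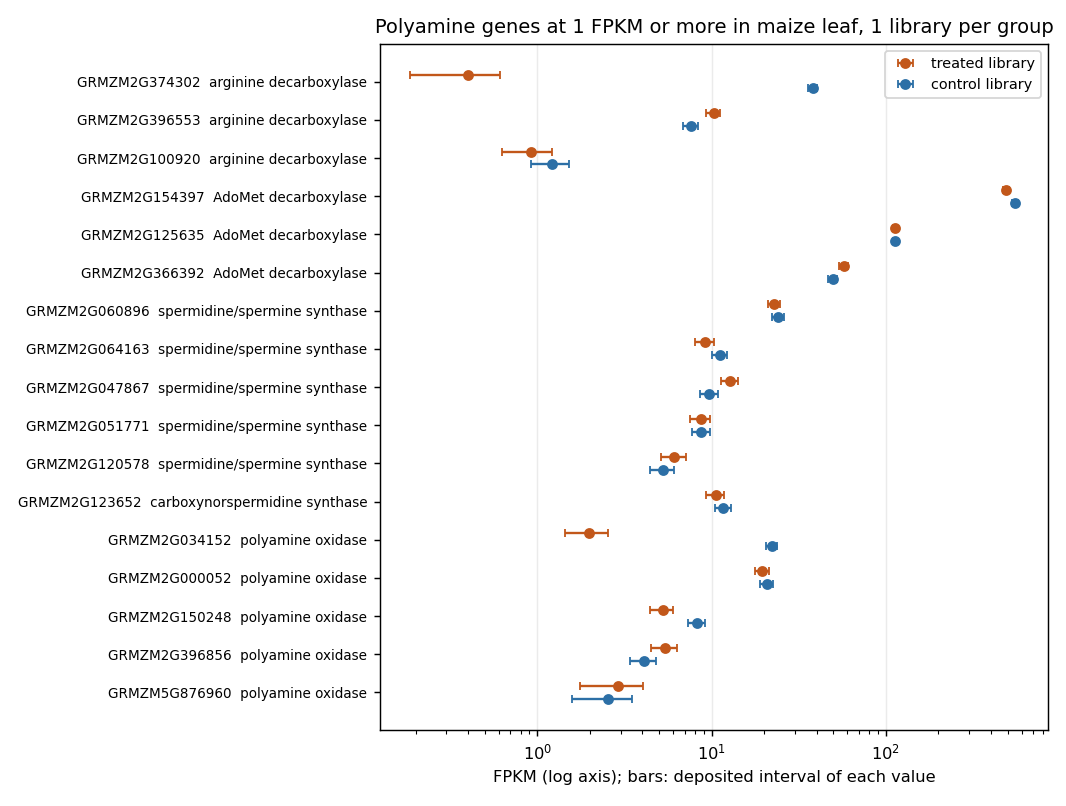
FPKM of the 17 measured polyamine genes (log axis), treated library above control library for each gene, with bars for the deposited interval. GRMZM2G374302 lies at 0.40 in the treated and 37.9 in the control library and GRMZM2G034152 at 1.98 in the treated and 22.2 in the control library, while the points of every other gene lie close together.

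Arginine decarboxylase opens the route from arginine to putrescine. Its gene GRMZM2G374302 (chromosome 4, 144835678 to 144840927; no genome build is named by the labels or files) had 0.40 FPKM (0.19 to 0.61) in treated leaves, against 37.9 FPKM (35.7 to 40.1) in control leaves. The treated level was 1.05% of the control level, a 95.1-fold lower value, and the log2 ratio was -4.80. If counting alone set the widths of the deposited intervals, they would correspond to 14.2 fragments in the treated and 1208 in the control library. The treated value thus rests on few fragments and the size of the fold is imprecise. Among all 16272 measured genes its ratio was rank 7 from the lowest, a rank that follows from its selection on the FPKM ratio. In abundance it stood at rank 18836 in the treated and 714 in the control library.

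The second gene with the plant-type decarboxylase domains, GRMZM2G396553 (chromosome 9, 23526334 to 23529702), did not share this difference. It had 10.3 FPKM (9.33 to 11.2) in treated leaves, against 7.59 FPKM (6.87 to 8.30) in control leaves, with a log2 ratio of 0.39. The intervals were apart on the deposited scale and overlapped after rescaling, where the log2 ratio was 0.15. The order of the pair was thus exchanged between the libraries. GRMZM2G374302 made up 3.42% of the summed arginine decarboxylase level in treated leaves, against 81.1% of it in control leaves.

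The remaining rows described as arginine decarboxylase carry the domain of the bacterial-type ornithine, lysine and arginine decarboxylases. GRMZM2G100920 had 0.92 FPKM (0.63 to 1.21) in treated leaves, against 1.21 FPKM (0.91 to 1.51) in control leaves, with overlapping intervals. GRMZM2G044372 had 0.061 FPKM in treated leaves, against 0.025 FPKM in control leaves, both close to the level of a single fragment. Over all 4 rows the summed level was 11.7 FPKM in treated leaves, against 46.7 FPKM in control leaves, or 24.9% of the control sum. The lower sum comes from GRMZM2G374302, which was selected on its FPKM ratio, so it carries no separate weight. Of the other rows, GRMZM2G396553 and GRMZM2G044372 had the higher deposited value in treated leaves and GRMZM2G100920 the lower.

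The alternative entry through ornithine was not seen at this depth. All 3 ornithine decarboxylase genes, GRMZM2G140824, GRMZM2G052288 and GRMZM2G001405, were listed at 0 in both libraries. An exact 0 can be a missing estimate in these tables, since all 181 genes of the organelle chromosomes are also listed at 0.

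S-adenosylmethionine decarboxylase, which makes the aminopropyl donor, was the most abundant enzyme class of the group. The gene GRMZM2G154397, named sam2 in the deposited annotation (chromosome 2, 32491968 to 32495438), had 491 FPKM (471 to 511) in treated leaves, against 551 FPKM (529 to 573) in control leaves. Its log2 ratio was -0.17 on the deposited scale and -0.43 after rescaling, and the intervals were apart on both scales. It ranked 36 in the treated and 43 in the control library among all genes. GRMZM2G125635 had 112 FPKM (109 to 116) in treated leaves, against 113 FPKM (110.4 to 116) in control leaves, a log2 ratio of -0.01 (-0.28 after rescaling). Its intervals overlapped as deposited and were apart after rescaling.

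The third abundant gene of this class, GRMZM2G366392, had 57.3 FPKM (53.7 to 60.9) in treated leaves, against 49.6 FPKM (46.8 to 52.5) in control leaves. Its intervals were apart on the deposited scale, with a log2 ratio of 0.20, and overlapped after rescaling, with -0.06. The other members of the class, GRMZM2G461159 and GRMZM2G060369, which are annotated next to each other on chromosome 7, were both listed at 0 for treated leaves, against 0.019 FPKM and 0 for control leaves. The class sum was 661 FPKM in treated leaves, against 714 FPKM in control leaves, or 92.5% of the control sum, and GRMZM2G154397 held 74.3% of it in the treated and 77.2% in the control library.

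Spermidine and spermine synthases, which attach the aminopropyl groups, were at similar levels in both libraries on the deposited scale. The most abundant, GRMZM2G060896, had 22.9 FPKM (21.1 to 24.7) in treated leaves, against 24.1 FPKM (22.3 to 25.8) in control leaves. Its log2 ratio was -0.07 as deposited, with overlapping intervals, and -0.32 after rescaling, with intervals apart. GRMZM2G047867, named spds2 and annotated as a spermidine synthase, had 12.7 FPKM (11.3 to 14.1) in treated leaves, against 9.68 FPKM (8.57 to 10.8) in control leaves, a log2 ratio of 0.36. Its intervals were apart as deposited and overlapped after rescaling (0.11).

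The other 3 measured synthase genes had overlapping intervals on the deposited scale. GRMZM2G064163 had 9.18 FPKM (8.04 to 10.3) in treated leaves, against 11.2 FPKM (10.04 to 12.3) in control leaves. After rescaling its intervals were apart, with a log2 ratio of -0.49. GRMZM2G051771 had 8.65 FPKM (7.49 to 9.81) in treated leaves, against 8.73 FPKM (7.67 to 9.78) in control leaves. GRMZM2G120578 had 6.11 FPKM (5.11 to 7.12) in treated leaves, against 5.26 FPKM (4.42 to 6.10) in control leaves. A sixth row described as spermidine synthase, GRMZM2G088293, had 0.069 FPKM in treated and 0.077 FPKM in control leaves, and its listed protein domains are those of plant transposases. The synthase sum was 59.6 FPKM in treated leaves, against 59.0 FPKM in control leaves. That is a log2 ratio of 0.02 as deposited and -0.25 after rescaling, so the sign depends on the scaling.

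The description match also took in GRMZM2G123652, annotated as a carboxynorspermidine synthase, an enzyme type of bacterial polyamine synthesis. It had 10.6 FPKM (9.31 to 11.8) in treated leaves, against 11.7 FPKM (10.5 to 12.9) in control leaves. Its intervals overlapped as deposited and were apart after rescaling, with a log2 ratio of -0.38.

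**Figure D2:**
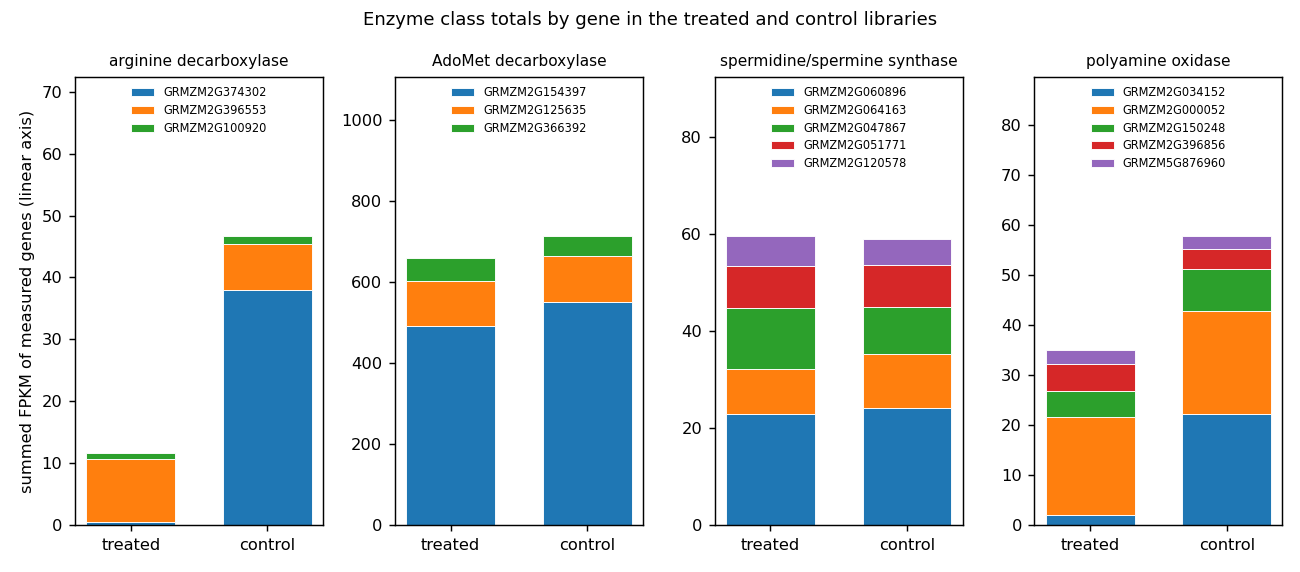
Summed FPKM of the measured genes of 4 enzyme classes (linear axes that differ between panels), stacked by gene, treated library left of control library. The arginine decarboxylase and polyamine oxidase bars are shorter in the treated library mainly by 1 gene each (blue), and the other classes are of similar height.

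Polyamine oxidases fall into types that differ in place and product. GRMZM2G034152 (chromosome 10, 62249317 to 62253700) is pao1, the gene of the maize oxidase that breaks spermidine and spermine down to diaminopropane. It had 1.98 FPKM (1.43 to 2.53) in treated leaves, against 22.2 FPKM (20.6 to 23.8) in control leaves. This was an 11.2-fold lower value with a log2 ratio of -2.96, at rank 32 from the lowest among measured genes. That rank too follows from the selection on the FPKM ratio. On the same assumption the interval widths correspond to 52.3 fragments in the treated and 744 in the control library.

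The only other gene described as of this diaminopropane-forming type, GRMZM2G071343 on chromosome 1, was under 1 FPKM. It was listed at 0 for treated leaves, against 0.32 FPKM (0.13 to 0.51) for control leaves, or 11.2 fragments on the same assumption. An exact 0 can be a missing estimate here too, so no direction was read for it. Its annotated locus overlaps GRMZM2G071374 by 59 bases, a gene listed at 0 in both libraries.

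Oxidases described as spermine or non-specific polyamine oxidases, a type that in Arabidopsis converts polyamines back to smaller ones, did not show a difference of that size. GRMZM2G000052, the most abundant, had 19.5 FPKM (17.6 to 21.4) in treated leaves, against 20.7 FPKM (18.8 to 22.5) in control leaves. Its intervals overlapped as deposited and were apart after rescaling, with a log2 ratio of -0.33. GRMZM2G150248 had 5.22 FPKM (4.43 to 6.02) in treated leaves, against 8.29 FPKM (7.36 to 9.21) in control leaves, with a log2 ratio of -0.58 (-0.80 after rescaling). Of the 15 genes beside the 2 lower ones this was the largest difference, and its intervals were apart on both scales. GRMZM2G396856 had 5.39 FPKM (4.47 to 6.32) in treated leaves, against 4.10 FPKM (3.39 to 4.81) in control leaves, with overlapping intervals. The 3 genes summed to 30.1 FPKM in treated leaves, against 33.1 FPKM in control leaves.

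The last measured oxidase, GRMZM5G876960, described as related to polyamine oxidase 3, had 2.90 FPKM (1.76 to 4.04) in treated leaves, against 2.55 FPKM (1.58 to 3.51) in control leaves. Its relative GRMZM2G137820 was listed at 0 in both libraries. The remaining rows were GRMZM2G065268, at 0 in treated and 0.058 FPKM in control leaves, and GRMZM2G430604 and GRMZM2G370756 at 0 in both. The listed domain of GRMZM2G370756 is that of acyl transferases and not of amine oxidases. Over all 10 oxidase rows the sum was 35.0 FPKM in treated leaves, against 58.2 FPKM in control leaves, and pao1 held 5.65% of it in the treated and 38.2% in the control library. Without the diaminopropane-forming type the sum was 33.0 FPKM in treated leaves, against 35.7 FPKM in control leaves.

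Over the 17 measured genes, the deposited intervals were apart for 7, or 41.2%, against 37.3% of all measured genes (28.6% with the treated value higher and 8.76% with it lower). These 7 were GRMZM2G374302, pao1 and 5 others, of which 3 had the higher value in treated leaves (GRMZM2G396553, GRMZM2G366392 and GRMZM2G047867) and 2 had the lower value there (GRMZM2G154397 and GRMZM2G150248). After rescaling the intervals were apart for 9, or 52.9%, against 29.8% of all measured genes (13.5% with the treated value higher and 16.2% with it lower), and the 7 of these beside GRMZM2G374302 and pao1 were lower in treated leaves in every case. The 2 genes included by identifier are among both counts, and their selection on the FPKM ratio raised both shares. Neither share can therefore be weighed against that of all measured genes. Among the other 15 genes the intervals were apart for 5 as deposited and for 7 after rescaling. The others apart after rescaling were GRMZM2G154397, GRMZM2G125635, GRMZM2G060896, GRMZM2G064163, GRMZM2G123652, GRMZM2G000052 and GRMZM2G150248. Relative to the value, deposited intervals are narrower for abundant genes, and 15 of the 17 genes reached 5 FPKM in at least 1 library. The shares were not compared at matched abundance. The 12 genes under 1 FPKM in both libraries comprised 7 at 0 in both and 5 with a value above 0, at most 0.069 FPKM in the treated and 0.32 FPKM in the control library.

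**Figure D3:**
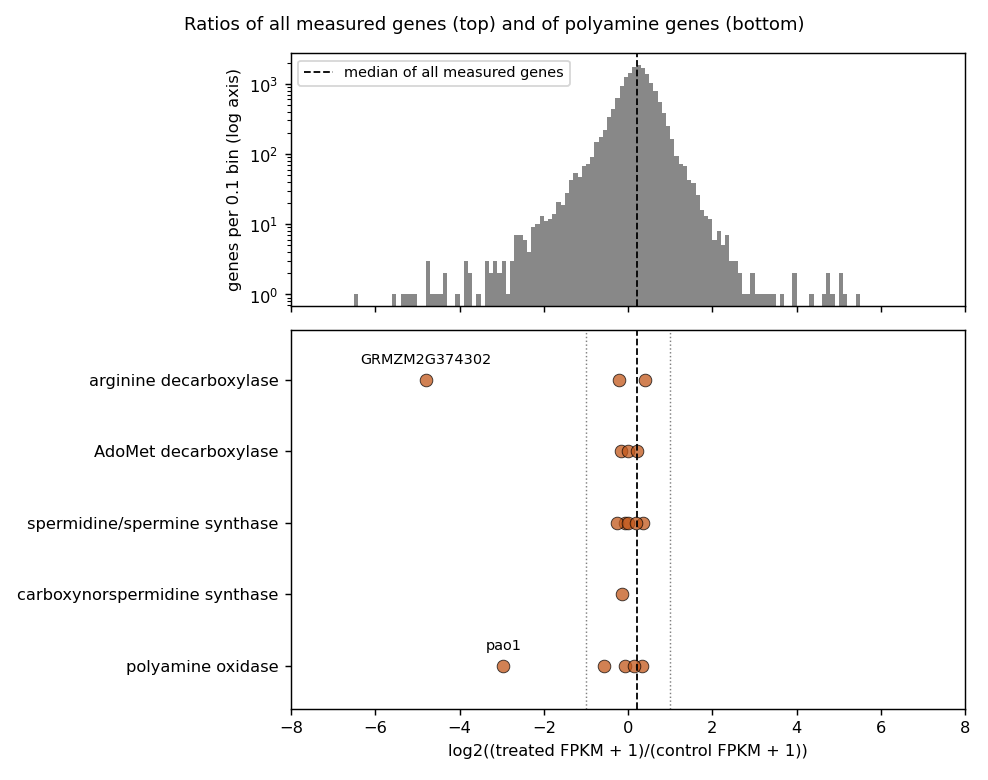
Top, number of genes per 0.1 bin of the log2 ratio of treated over control for the 16272 measured genes (log axis). Bottom, the same ratio for the 17 measured polyamine genes by enzyme class, with dotted lines at -1 and 1 and a dashed line at the median gene (0.22); GRMZM2G374302 at -4.80 and pao1 at -2.96 stand apart from the other 15 genes.

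The authors' deposited table of genes lower in the treated library lists 631 genes (1.59% of the 39634), with p-values up to 0.0499. GRMZM2G374302 and pao1 are in it. Both were selected on their FPKM ratio between these same libraries. Their presence in that list and their p-values therefore carry no separate weight. In the authors' deposited table pao1 (GRMZM2G034152) has a log2 fold change of -3.70 with p = 5e-05 and q = 0.00995, and it carries the significance flag. For GRMZM2G374302 the authors' deposited table gives the larger fold change, -6.83, with p = 0.00085 and q = 0.0946, and no flag. No polyamine gene is in the authors' deposited table of 380 genes higher in the treated library (0.959% of the 39634). These fold changes rest on the authors' own FPKM estimates for that comparison, which differ from the library FPKM given here. A comparison of 1 library with 1 compares those libraries and not the conditions.

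None of the nearest annotated genes on either side of the 2 lower loci passed the threshold, but few of them were measured. Among all measured genes 2.52% were lower and 3.71% were higher, so no calls among so few genes carries no weight. The measured neighbours lay 103 to 400 kilobases from GRMZM2G374302 and 447 to 795 kilobases from pao1. Of the 5 annotated genes on either side of GRMZM2G374302, 3 reached 1 FPKM and none was counted as higher or lower, with log2 ratios between -0.19 and 0.40 for these 3. Around pao1, 3 of the 10 reached 1 FPKM, none was counted, and the ratios of these 3 lay between -0.064 and 0.37. No other annotated gene overlaps either locus.

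The 5 markers of leaf cells examined were abundant in both libraries and none was at 0. All 5 had the lower value in the treated library, and 2 of them passed the threshold (ssu1, with a log2 ratio of -2.12, and Lhcb4, at -2.47), while pep1 at -0.47, me3 at -0.68 and RCA1 at -0.93 did not. The mesophyll gene pep1 (GRMZM2G083841), which encodes the carboxylase that begins C4 fixation, had 1262 FPKM in treated leaves, against 1747 FPKM in control leaves. The bundle sheath genes me3 (GRMZM2G085019), RCA1 (GRMZM2G162200) and ssu1 (GRMZM2G098520) had 591, 255 and 36.1 FPKM in treated leaves, against 944, 488 and 161 FPKM in control leaves. The antenna gene Lhcb4 (GRMZM2G033885) had 150.4 FPKM in treated leaves, against 838 FPKM in control leaves. The 5 summed to 2294 FPKM in treated leaves, against 4177 FPKM in control leaves. The part of these markers in the polyamine gene differences was not tested, and in pooled leaf RNA fewer cells of a type and less RNA per cell cannot be told apart.

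Genes of pathways next to polyamine metabolism were read from 9 lists of names and descriptions, which together held 48 measured genes outside the 29. Of these, 3 were lower and 1 was higher in the treated library. Among all measured genes 2.52% were lower and 3.71% were higher. The 48 genes had a median log2 ratio of 0.23, close to the 0.22 of all measured genes. After rescaling 4 were lower and 1 was higher, where 3.39% and 2.04% of all measured genes were. The counts of single lists below rest on few genes and carry no weight against these shares.

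On the route from arginine, the step after arginine decarboxylase was also lower. Agmatine deiminase (GRMZM2G064159), which takes agmatine to N-carbamoylputrescine, had 7.96 FPKM (6.90 to 9.02) in treated leaves, against 17.9 FPKM (16.4 to 19.4) in control leaves. That is 2.25-fold lower, with a log2 ratio of -1.08 (-1.31 after rescaling), and a log2 fold change of -1.42 with q = 0.407 in the authors' deposited table. N-carbamoylputrescine amidase (GRMZM2G073950), the step that yields putrescine, had 3.95 FPKM in treated leaves, against 2.82 FPKM in control leaves, a log2 ratio of 0.37. The third measured gene of the agmatine list, GRMZM5G882427, is annotated as an agmatine coumaroyltransferase, which uses agmatine for another product, and had a log2 ratio of 0.09.

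Arginine and ornithine supply showed no gene past the threshold. Its 11 measured genes had a median log2 ratio of 0.17 (-0.08 after rescaling). The largest ratios were those of an acetylglutamate kinase gene of arginine synthesis (GRMZM2G132777), at 6.06 FPKM in treated leaves, against 3.34 FPKM in control leaves, and of arginase (GRMZM2G174671), which splits arginine to ornithine and urea, at 5.82 FPKM in treated and 3.41 FPKM in control leaves.

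Among 11 genes of S-adenosylmethionine supply and methylthioadenosine recycling, 1 was lower while none was higher, and the median was 0.29 (0.04 after rescaling). The lower gene, GRMZM2G111164, encodes acireductone synthase, an enzyme of the cycle that recovers methionine from the by-product of the synthases. It had 3.55 FPKM (2.77 to 4.33) in treated leaves, against 9.30 FPKM (8.15 to 10.4) in control leaves, 2.62-fold lower. An S-adenosylmethionine synthetase gene, GRMZM2G054123, had 13.1 FPKM in treated leaves, against 7.95 FPKM in control leaves, a log2 ratio of 0.65.

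Ethylene synthesis draws on the same S-adenosylmethionine, and its 3 measured genes, all aminocyclopropane carboxylate oxidases, had negative ratios with a median of -0.59. The lowest was GRMZM2G166639, with 7.36 FPKM (6.08 to 8.63) in treated leaves, against 13.7 FPKM (12.1 to 15.3) in control leaves, a log2 ratio of -0.82. After rescaling it was at -1.05 and counted as lower. GRMZM2G072529 had 6.05 FPKM in treated leaves, against 9.65 FPKM in control leaves.

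The list of copper amine oxidases, which oxidise putrescine, and aminoaldehyde-type dehydrogenases, which act on the products, had 4 measured genes. Their median log2 ratio was 0.62 (0.38 after rescaling) and none passed the threshold. The largest ratio was that of the copper amine oxidase gene GRMZM2G147884, with 3.12 FPKM in treated leaves, against 1.41 FPKM in control leaves, a log2 ratio of 0.77 with intervals apart. The dehydrogenase genes GRMZM2G013214 and GRMZM2G146754, described as betaine aldehyde dehydrogenases, had 8.80 and 16.9 FPKM in treated leaves, against 5.02 and 11.3 FPKM in control leaves. The intervals of GRMZM2G013214 overlapped and those of GRMZM2G146754 were apart. Both are annotated next to each other on chromosome 4, and whether they are pieces of 1 locus was not tested.

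GABA, the product of the putrescine breakdown route, is also made from glutamate. Of 6 measured genes of GABA metabolism, 1 was lower, the glutamate decarboxylase gene GRMZM2G017110, with 2.22 FPKM (1.70 to 2.74) in treated leaves, against 6.72 FPKM (5.91 to 7.54) in control leaves. Its log2 ratio was -1.26, and the authors' deposited table gives it a log2 fold change of -1.87 with q = 0.179. The list's median was -0.11 (-0.29 after rescaling). GRMZM2G024303, described as an acetylating succinate semialdehyde dehydrogenase or succinyl-CoA reductase, had 5.53 FPKM in treated leaves, against 2.93 FPKM in control leaves. GRMZM2G128114 and GRMZM2G119482, described as mitochondrial succinate semialdehyde dehydrogenases, had log2 ratios of -0.15 and -0.07, with overlapping intervals.

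The remaining lists were those of eIF5A and hypusine, hydroxycinnamoyl transfer and polyamine transport. Translation factor eIF5A carries hypusine, an amino acid made from spermidine, and its genes GRMZM2G113696 and GRMZM2G144030 had 210.4 and 95.6 FPKM in treated leaves, against 165 and 70.2 FPKM in control leaves, log2 ratios of 0.35 and 0.44. The hydroxycinnamoyl transfer list had 1 higher gene of 5, AC215260.3_FG003, at 16.8 FPKM (15.1 to 18.6) in treated leaves, against 4.60 FPKM (3.79 to 5.40) in control leaves, 3.66-fold higher. All 5 measured genes of that list, this one included, are described as acting on quinate and not on polyamines. GRMZM2G131165 of the same list had 57.4 FPKM in treated leaves, against 37.7 FPKM in control leaves. The polyamine transporter gene GRMZM2G078292 had 8.32 FPKM in treated leaves, against 5.64 FPKM in control leaves, a log2 ratio of 0.49 (0.25 after rescaling).

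**Figure D4:**
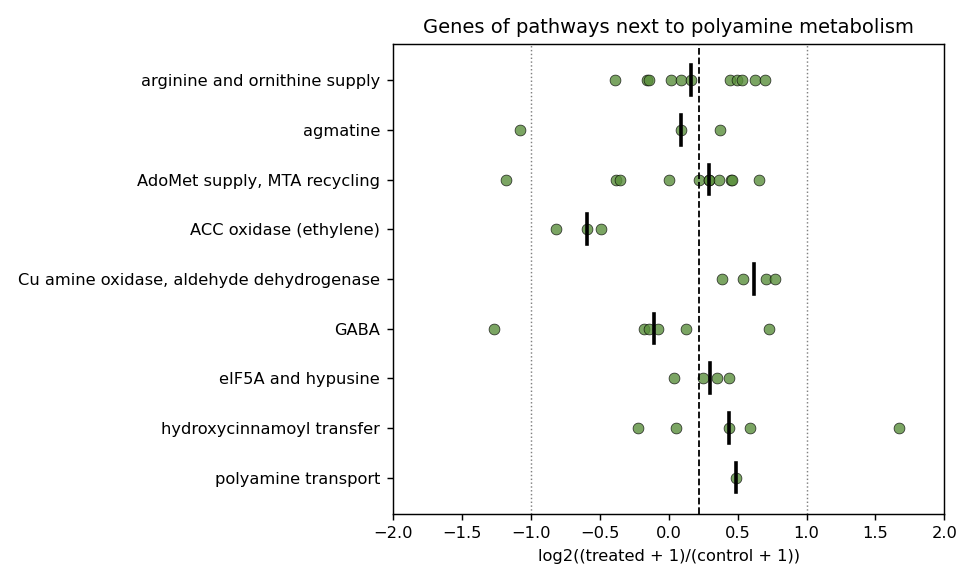
Log2 ratio of treated over control for the measured genes of 9 lists next to polyamine metabolism (1 point per gene), with the list median (black bar), the median of all measured genes (dashed line, 0.22) and the thresholds (dotted lines at -1 and 1). The points left of -1 are agmatine deiminase, acireductone synthase and a glutamate decarboxylase gene, and the point right of 1 is AC215260.3_FG003.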

How the data were processed

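RNA was sequenced from 1 treated and 1 control leaf library. The submitters list Cufflinks 2.2.1, Cuffdiff, Bowtie2 2.2.6, TopHat2 2.1.0, Picard 1.115 and cutadapt 1.8.1 in their processing notes, without roles. No source used here names the genome build. Each library table from the authors gives a deposited FPKM per gene and its bounds, per the file headers. The authors' comparison tables give a log2 fold change, p-value and q-value per gene, per the file headers. Another 8 FPKM columns in the comparison tables carry names that fit no library label and were left out. Their levels differ from those of the library tables, so the authors' fold changes, p-values and q-values rest on other FPKM estimates than the ones reported.

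From these, log2((treated + 1)/(control + 1)) was computed with Python 3.11.15, pandas 2.3.3 and numpy 2.4.6, and the code was tested on simulated data. No p-value was computed, since each group has 1 library. Locus starts were moved to counting from 1, because 75.7% of short predicted coding loci have a length divisible by 3 if the file's starts count from 0 and 12.2% if they count from 1. Fragment numbers were read from the interval widths as (2 × FPKM / (upper bound − FPKM)) squared, and relative depth over 2066 genes below 5 fragments that came out whole within 0.01 in both libraries. The fragment numbers assume that counting alone sets the interval width, which was not tested and need not hold for every gene. Total depth is unknown.

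The members, the 9 lists and the thresholds were chosen with earlier results of these data known. Every member at 1 FPKM or more is named. From each list, genes counted as higher or lower and the 2 largest ratios among genes at 5 FPKM or more are named, and other genes named were chosen after their values were seen. Alternatives were pseudocounts of 0.1 and 0.5, no minimum or a minimum of 5 FPKM, and 3 rescalings. RefSeq entries matched 19 of the 29 genes by gene number or synonym and were used for names only (assembly Zm-B73-REFERENCE-NAM-5.0).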

Additional observations from a re-analysis of the deposited data

How the results depend on the processing

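Under the pseudocounts of 0.1 and 0.5, with no minimum or a minimum of 5 FPKM, under the 3 rescalings and with members taken by description alone, 2 polyamine genes were lower and none was higher. Without GRMZM2G374302 and GRMZM2G034152, an alternative chosen after seeing the data, 0 were lower. The median log2 ratio of -0.07 ranged from -0.35 under upper-quartile rescaling to -0.01 with no minimum FPKM. The log2 ratio of GRMZM2G374302 was -6.25 and that of GRMZM2G034152 -3.42 with a pseudocount of 0.1. Of the 15 other measured genes, 3 had positive ratios under median-gene or upper-quartile rescaling and 8 under summed-FPKM rescaling, and 5 changed sign between the deposited scale and the rescalings. The other 10 kept their sign, 7 of them negative and 3 positive. Median-gene rescaling changed whether the intervals overlapped for 8 of the 17 genes. Of the list counts, only that of lower ethylene genes changed under median-gene rescaling, to 1 from 0. Median-gene rescaling multiplies every treated value by 0.831, so every list median had to fall and the size of the fall is no check. The medians of arginine and ornithine supply (0.17 to -0.08) and of the agmatine list (0.09 to -0.12) changed sign. No paired analysis was possible because each group has 1 library. Leaving out a replicate was not possible for the same reason. Reads shared between related genes may be split in a way these files do not show.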

Other observations

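The flavin amine oxidase domain of the polyamine oxidases also occurs in carotenoid and heme enzymes and in histone demethylases. Of 24 genes with this domain outside the polyamine set, 14 reached 1 FPKM in either library, with a median log2 ratio of 0.08. Of the 14, 1 was higher and none was lower in treated leaves. Among all measured genes 3.71% were higher and 2.52% were lower, so counts among so few genes carry no weight. The higher one, GRMZM2G357734, had 2.74 FPKM in treated leaves, against 0.82 FPKM in control leaves, so it was measured only through the treated library. Just under the threshold, a phytoene desaturase gene of carotenoid synthesis (GRMZM2G088601) had 42.3 FPKM in treated leaves, against 20.9 FPKM in control leaves, a log2 ratio of 0.98.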
